A study of Mus musculus with 2 samples.

Results

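Mitophagy is the removal of damaged or surplus mitochondria by autophagy, the pathway that encloses cell contents in a membrane and delivers them to the lysosome. 9 mouse genes of this pathway, matched by symbol among the 32285 genes of the count tables, are described here, and all 9 were found. Bnip3, Bnip3l, Fundc1 and Fkbp8 encode receptors on the outer mitochondrial membrane that bind LC3-type proteins directly. Pink1 encodes the kinase that accumulates on depolarized mitochondria and phosphorylates ubiquitin there. Sqstm1 (p62) and Optn encode adaptors that link ubiquitin-tagged cargo to the autophagic membrane, Map1lc3b encodes one of the membrane-bound LC3 proteins, and Ulk1 encodes the kinase that starts autophagosome formation. Bnip3 is known as a target of hypoxia-inducible factor, and Sqstm1 as a target of NRF2, the oxidative stress factor encoded by Nfe2l2.

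The cells were CD45-positive leukocytes sorted from B16-F10 tumors, a mouse melanoma line grown in WT mice. One group received DOPAC, dihydroxyphenylacetic acid, a dopamine metabolite, and the Control group received vehicle. The design text gives 4 mice per group, and 1 library per group was analysed here, in which cells carry no tag for the mouse. No difference therefore has a replicate check, no test between treatments is given, and all intervals are 95% intervals that cover counting error only. Dose, schedule, sex and age of the mice are not given in the sources used here. The labels call the cells lymphocytes, whereas monocytes and macrophages were found in large numbers in both libraries. The protocol label names colon as the digested tissue, while the tissue label and design name tumor.

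The DOPAC library kept 9280 cells with a median of 3592 UMIs (unique molecular identifiers, each marking 1 captured transcript) and 1521 genes. The Control library kept 8105 cells with a median of 9320 UMIs and 2737 genes. Cells were placed in classes by the UMIs of marker genes, and among 31 markers not used for gating, 25 in DOPAC and 28 in Control were highest in their own lineage. Of the cell barcodes, 32 occurred in both libraries. Haemoglobin genes took 0.0001% of DOPAC UMIs and 0.0979% of Control UMIs. Levels are CPM, the UMIs of a gene scaled to a fixed total of UMIs of all genes, summed over the cells of a class. 19 classes had at least 50 cells in both libraries, and 16 of them did not overlap each other. A gene was counted in a class with at least 20 UMIs in both sums together, and was called higher or lower when the ratio of DOPAC over Control passed 1.5-fold after 1 count was added to each sum. Folds printed below are plain CPM ratios.

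Promoter sequence from RefSeq, in the GRCm38.p6 build, was matched for 8 of the 9 genes. Each window runs from 250 bases before to 50 after the annotated start. Bnip3, which differed most between the libraries, is shown beside Map1lc3b, which held as many motif matches and stayed within 1.5-fold in most classes, and Fkbp8, the gene most often lower in DOPAC. Capitals mark ACGTG or GCGTG, the letters at the centre of hypoxia response elements, on either strand, and TGACNNNGC, the centre of the antioxidant response element. The windows are chr7:138909457-138909756 on the minus strand for Bnip3, chr8:121590188-121590487 on the plus strand for Map1lc3b and chr8:70527493-70527792 on the plus strand for Fkbp8.
Bnip3: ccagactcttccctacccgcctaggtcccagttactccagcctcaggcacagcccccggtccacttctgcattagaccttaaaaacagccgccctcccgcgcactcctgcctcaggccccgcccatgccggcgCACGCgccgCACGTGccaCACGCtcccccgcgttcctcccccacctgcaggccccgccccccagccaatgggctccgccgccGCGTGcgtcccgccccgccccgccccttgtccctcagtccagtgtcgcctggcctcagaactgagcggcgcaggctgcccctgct
Map1lc3b: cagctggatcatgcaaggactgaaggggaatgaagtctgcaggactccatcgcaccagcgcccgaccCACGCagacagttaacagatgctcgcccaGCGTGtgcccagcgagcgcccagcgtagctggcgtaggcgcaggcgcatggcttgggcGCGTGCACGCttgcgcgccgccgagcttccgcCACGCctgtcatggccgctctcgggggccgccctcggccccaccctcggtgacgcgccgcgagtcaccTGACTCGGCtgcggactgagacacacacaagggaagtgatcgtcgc
Fkbp8: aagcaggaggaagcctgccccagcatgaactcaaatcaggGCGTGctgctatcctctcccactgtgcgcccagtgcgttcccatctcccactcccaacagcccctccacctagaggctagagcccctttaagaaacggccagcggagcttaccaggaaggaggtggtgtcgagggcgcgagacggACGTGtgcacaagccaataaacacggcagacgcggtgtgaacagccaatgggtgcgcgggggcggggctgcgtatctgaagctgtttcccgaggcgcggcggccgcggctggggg
Bnip3 held 5 matches to the hypoxia letters, 2 of which share the palindrome CACGTG, and 71.7% of its bases were G or C. Map1lc3b held 5 such matches and 1 match to TGACNNNGC, and Fkbp8 held 2 matches to the hypoxia letters. All of these hypoxia-type matches lay before the start. Of 32851 promoters of the same length, 43.8% held at least 1 match to either hypoxia sequence, 1.66% held at least 5, 7.15% held CACGTG and 12.4% held TGACNNNGC. Optn held 3 matches to the hypoxia letters, Pink1 and Ulk1 held 1 each, and none was found in the windows of Sqstm1 and Fundc1.

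In GRCm38 the Bnip3 gene (ENSMUSG00000078566) spans chr7:138890836-138909519 on the minus strand. Bnip3l lies at chr14:66985239-67008877, Pink1 at chr4:138313409-138326307, Fundc1 at chrX:17556564-17572325 and Fkbp8 at chr8:70527724-70535328. Sqstm1 lies at chr11:50199366-50210827, Optn at chr2:5020642-5064051, Map1lc3b at chr8:121590361-121598760 and Ulk1 at chr5:110784488-110810097. Genes on the opposite strand that are also in the count tables overlap 5 of the 9, namely Gm45507 (Bnip3), Kxd1 (Fkbp8), Mrnip (Sqstm1), 4930551O13Rik (Optn) and Zcchc14 (Map1lc3b). Whether counting used the strand is not given in the sources used here, so values of these 5 genes are uncertain to the extent that such reads were shared. Gm45507 had 13 UMIs in DOPAC CD8 T cells and 6 in Control CD8 T cells, few beside those of Bnip3. Kxd1 was at 45.1 CPM in DOPAC CD8 T cells and 58.1 CPM in Control CD8 T cells.

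Bnip3 was 5.49-fold higher in the CD8 T cells of the DOPAC library (interval 3.58 to 8.86). Its level was 24.8 CPM in DOPAC CD8 T cells (22.5 to 27.3, 417 UMIs in 2647 cells) and 4.52 CPM in Control CD8 T cells (2.83 to 6.84, 22 UMIs in 534 cells). On the log2 scale with 1 count added the ratio was 2.40, and 1.23 after every cell was thinned to 1000 UMIs (57 DOPAC and 4 Control UMIs). Of the 9 genes, 3 were called higher in DOPAC CD8 T cells (Bnip3, Optn and Fundc1) and 3 lower (Pink1, Ulk1 and Fkbp8), where 17.8% of 12200 genes were called higher and 22.0% lower. Their median log2 ratio was -0.24, against -0.05 over all genes counted. The class was made up differently in the libraries: 55 DOPAC and 387 Control CD8 T cells were naive-like, 932 and 51 were cycling, and 1548 and 81 were checkpoint-positive.

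Bnip3 was also higher within the activated CD8 T-cell gates. In cycling cells, gated on Mki67 and Top2a, it was at 25.9 CPM in DOPAC (222 UMIs) and 4.71 CPM in Control (4 UMIs), a 5.50-fold difference (2.12 to 20.4). In checkpoint-positive cells, gated on genes such as Pdcd1, Havcr2 and Lag3, it was at 24.9 CPM in DOPAC (190 UMIs) and 7.91 CPM in Control (6 UMIs), 3.14-fold higher (1.42 to 8.68). Naive-like cells had 1 Bnip3 UMI in DOPAC and 12 in Control, at 4.05 CPM and 3.79 CPM, the lowest level in either library among classes with at least 50 cells. Without the naive-like cells the log2 ratio of the CD8 T class was 1.96, against 2.40 with them.

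Free RNA from myeloid cells was gauged with Lyz2, the lysozyme gene of monocytes and macrophages. Lyz2 stood at 128 CPM in DOPAC CD8 T cells and 203 CPM in Control CD8 T cells. At the Bnip3 to Lyz2 ratio of the monocytes and macrophages of the same library, that amount would carry 3.45 CPM of Bnip3 in DOPAC and 2.88 CPM in Control. The DOPAC level of 24.8 CPM was above that value, while the Control interval of 2.83 to 6.84 CPM includes it, so expression of Bnip3 in Control CD8 T cells was not told apart from background. For the melanoma gene Tyrp1 the same reckoning gave 0.147 CPM in DOPAC and 0.362 CPM in Control. After every cell was thinned to 1000 UMIs, 2.08% of DOPAC CD8 T cells had a Bnip3 UMI (Clopper-Pearson interval 1.57 to 2.70). The share in Control CD8 T cells was 0.750% (0.205 to 1.91), and the intervals of the libraries overlap. Thinning left out 4 DOPAC and 1 Control cells that were shallower. Before thinning, the shares were 11.5% at a median of 5347 UMIs in DOPAC and 3.75% at 7737 UMIs in Control. Control B cells, used as a class outside the T and myeloid lineages, had a Bnip3 UMI in 1.35% of thinned cells (0.585 to 2.65) and 5.55% of unthinned cells at a median of 4303 UMIs. The interval of the thinned share in DOPAC CD8 T cells therefore overlaps that of Control B cells. With all UMIs counted, the intervals of the levels did not overlap. Control B cells had 12.99 CPM (9.05 to 18.1, 35 UMIs), against 24.8 CPM (22.5 to 27.3) in DOPAC CD8 T cells. The Lyz2 reckoning gave 2.92 CPM of Bnip3 in Control B cells. Their level was above that value, but the reckoning covers only free RNA that carries Lyz2 at the ratio of monocytes and macrophages. Whether Control B cells stand for background alone was not tested.

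**Figure D1:**
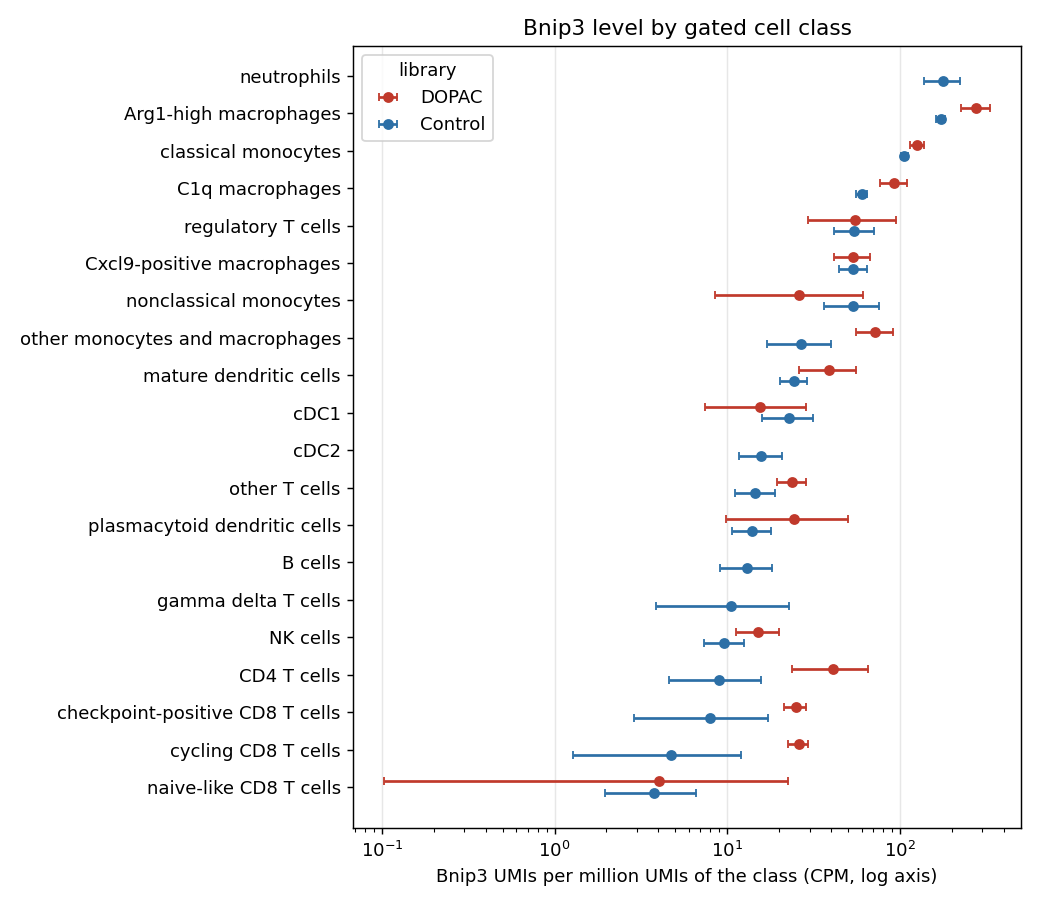
Bnip3 level by gated class, as CPM on a log axis, with exact Poisson 95% intervals, for classes with at least 50 cells in the library plotted; classes are ordered by the Control level. Arg1-high macrophages reached 276 CPM in DOPAC and 172 CPM in Control, and naive-like CD8 T cells were lowest in both.

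Among other T cells, Bnip3 was 4.56-fold higher in DOPAC CD4 T cells (2.05 to 10.5), at 40.8 CPM against 8.96 CPM in Control, from 17 and 12 UMIs; 20.1% of genes were called higher in that class. Regulatory T cells, marked by Foxp3, had 55.3 CPM in DOPAC (29.4 to 94.5) and 54.5 CPM in Control (41.4 to 70.5), a ratio of 1.01 (0.510 to 1.87), so that a difference of up to that interval was not detectable. This was the highest T-cell level in both libraries, although in DOPAC it overlapped that of CD4 T cells. T cells outside these gates had 23.8 CPM in DOPAC and 14.6 CPM in Control, 1.63-fold higher (1.18 to 2.29), where 13.1% of genes were called higher. This remainder held 1411 DOPAC cells at a median of 2734 UMIs and 558 Control cells at 6065. Whether depth altered which cells failed the gates was not tested.

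In NK cells Bnip3 was at 15.1 CPM in DOPAC (52 UMIs) and 9.63 CPM in Control (58 UMIs), 1.57-fold higher (1.06 to 2.33). The log2 ratio was 0.66, against 1.24 when cells were thinned after gating (12 DOPAC and 4 Control UMIs). It was under the 1.5-fold mark at 0.29 when cells were gated after thinning (18 and 28 UMIs) and at 0.36 as a mean of per-cell CPM. Bnip3 was the 1 of the 9 genes called higher in NK cells, where 11.3% of genes were, while 3 were called lower (Pink1, Fkbp8 and Sqstm1), where 18.7% were. Conventional NK cells, gated on Itga2 and Klf2, had 25.7 CPM in DOPAC (14 UMIs) and 9.80 CPM in Control (41 UMIs). This was 2.62-fold higher (1.32 to 4.91), with 16.3% of genes called higher. They were 161 of 1034 DOPAC NK cells and 645 of 935 Control NK cells, so the NK class was made up differently in the libraries. NK cells had a median of 2729 UMIs in DOPAC and 5855 in Control, and the part of depth in this split was not tested. The Lyz2 reckoning gave 1.92 CPM in DOPAC NK cells and 3.001 CPM in Control NK cells.

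Macrophages and classical monocytes were among the classes with the highest Bnip3 levels in both libraries. Arg1-high macrophages had 276 CPM in DOPAC (225 to 334, 105 UMIs in 70 cells) and 172 CPM in Control (161 to 184, 948 UMIs in 286 cells), 1.601-fold higher (1.30 to 1.96), with 21.6% of genes called higher. C1q macrophages, with fewer than 3 UMIs each of Arg1 and Cxcl9, had 92.3 CPM in DOPAC and 59.99 CPM in Control. Bnip3 was 1.54-fold higher there (1.26 to 1.87), with 18.1% of genes called higher. The Arg1 and Cxcl9 cuts are fixed UMI numbers, while C1q macrophages had a median of 4158 UMIs in DOPAC and 15218 in Control. The part of depth in the ratios of the macrophage subsets was not tested. Cxcl9-positive macrophages, which carry an interferon-induced chemokine, had 53.3 CPM in DOPAC and 53.7 CPM in Control, a ratio of 0.992 (0.729 to 1.34).
Over all macrophages together the ratio was 1.11 (0.981 to 1.26), from 98.3 CPM in DOPAC and 88.4 CPM in Control. The log2 ratio was 0.16, but 0.80 and past the 1.5-fold mark after thinning to 1000 UMIs (64 DOPAC and 85 Control UMIs). Arg1-high cells, the macrophage subset with the highest level, made up 70 of 542 DOPAC macrophages and 286 of 1225 Control macrophages. After thinning, 27.5% of DOPAC Arg1-high macrophages (17.5 to 39.6) and 13.7% of Control ones (9.92 to 18.2) had a Bnip3 UMI, with overlapping intervals.

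Classical monocytes had 126 CPM in DOPAC (493 UMIs) and 106 CPM in Control (1850 UMIs), 1.18-fold higher (1.07 to 1.31) and under the 1.5-fold mark. Monocytes and macrophages outside the gated subsets had 71.8 CPM in DOPAC and 26.8 CPM in Control. This was 2.68-fold higher (1.65 to 4.50), with 14.7% of genes called higher. The class holds cells that met no subset gate, 244 in DOPAC at a median of 3670 UMIs and 93 in Control at 8961. Whether depth altered which cells fell into it was not tested. Nonclassical monocytes were the 1 class in which Bnip3 was called lower, at 26.1 CPM in DOPAC (5 UMIs) and 53.5 CPM in Control (32 UMIs), a ratio of 0.489 whose interval of 0.149 to 1.26 includes 1; 19.0% of genes were called lower there. Mature dendritic cells had 39.0 CPM in DOPAC and 24.3 CPM in Control, 1.602-fold higher (1.03 to 2.41; 17.2% of genes). In plasmacytoid dendritic cells the ratio was 1.75 (0.677 to 3.84; 24.0% of genes) from 7 DOPAC and 60 Control UMIs. cDC1, the cross-presenting dendritic cells, had 15.6 CPM in DOPAC and 22.7 CPM in Control, a ratio of 0.687 (0.304 to 1.41).

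Counted over classes, Bnip3 was called higher in 12 and lower in 1 of the 18 classes with enough UMIs, and higher in 10 and lower in 1 of the 15 that do not overlap. Of the 4135 genes counted in all 16 separate classes, which do not include Bnip3, 154 (3.72%) were called higher in at least 10. Those genes had enough UMIs in every class, so the share is not matched to genes with as few UMIs as Bnip3. In DOPAC, the order of levels ran from Arg1-high macrophages through classical monocytes to C1q macrophages, and each of these steps exceeded counting error. Further down the DOPAC order no neighbouring classes differed beyond it. Control neutrophils, at 177 CPM, and Control Arg1-high macrophages, at 172 CPM, headed the Control order and did not differ beyond counting error. The steps from Arg1-high macrophages to classical monocytes, from these to C1q macrophages and from nonclassical monocytes to monocytes and macrophages outside the gated subsets did. Of all Bnip3 UMIs, 23.4% in DOPAC and 0.437% in Control came from CD8 T cells, which were 28.5% of DOPAC cells and 6.59% of Control cells. Classical monocytes gave 27.7% of Bnip3 UMIs in DOPAC and 36.8% in Control, and macrophages 16.7% and 37.4%.

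Bnip3l (NIX), the paralogue of Bnip3 best known for clearing mitochondria from maturing red cells, was called in none of the 19 classes. Its ratios ran from 0.647 in plasmacytoid dendritic cells (0.373 to 1.05), within 1.5-fold after 1 count was added, to 1.42 in Arg1-high macrophages (1.09 to 1.82). CD8 T cells had 112 CPM in DOPAC (1876 UMIs) and 132 CPM in Control (642 UMIs), a ratio of 0.847 (0.774 to 0.928). Macrophages had 83.4 CPM in DOPAC and 89.0 CPM in Control. The level varied less between classes than that of Bnip3, between 57.6 CPM in cDC1 and 190 CPM in naive-like CD8 T cells in DOPAC, and between 56.7 CPM in cDC1 and 223 CPM in neutrophils in Control. RNA of haemoglobin genes and Alas2, together a sign of red-cell material, was at 1.31 CPM in DOPAC CD8 T cells and 1303 CPM in Control CD8 T cells. The part of red-cell material in the Bnip3l level was not tested.

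**Figure D2:**
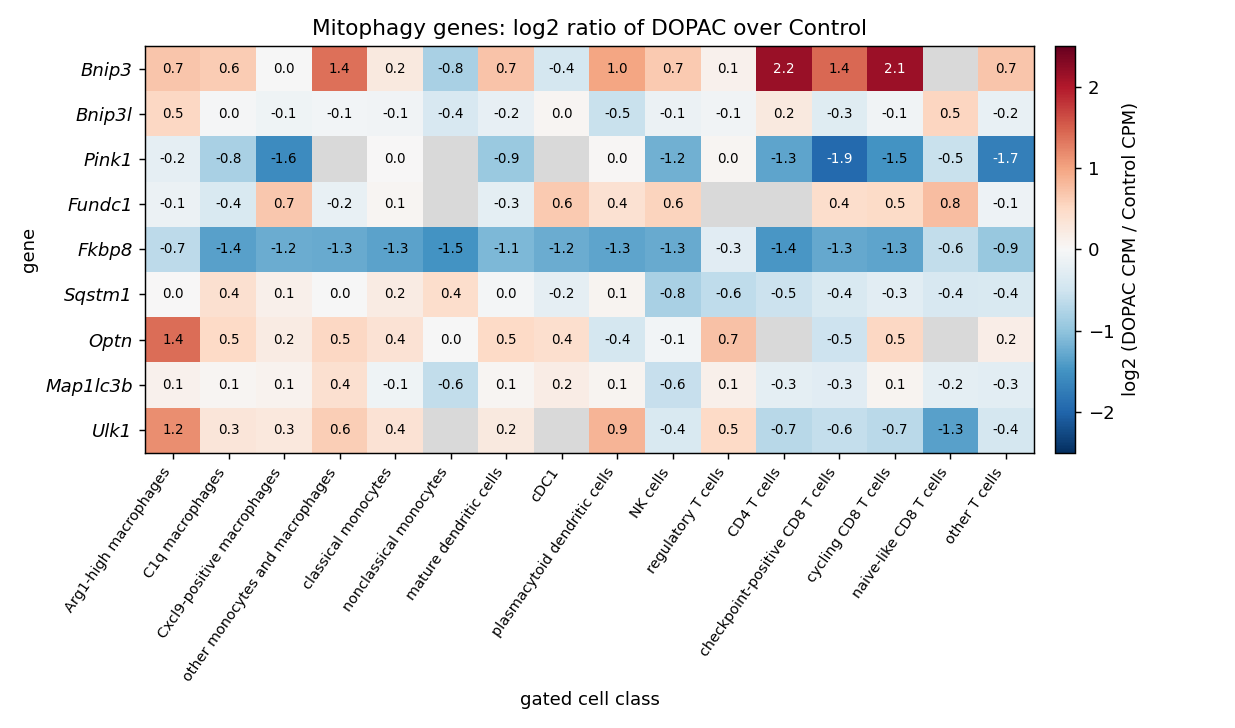
Log2 ratio of DOPAC over Control CPM, with 1 count added, for the 9 genes (rows) in the 16 classes that do not overlap (columns); red is higher and blue lower in DOPAC, and grey marks fewer than 20 UMIs in both sums. The Fkbp8 row is below 0 throughout, and the Bnip3l row stays within 1.5-fold in either direction.

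Fkbp8, a receptor on mitochondria that also anchors BCL2, was lower in DOPAC in almost every class. It was called lower in 18 of the 19 classes and in 15 of the 16 that do not overlap, and its ratio was under 1 in all 19. Macrophages had 39.4 CPM in DOPAC (119 UMIs) and 97.9 CPM in Control (2082 UMIs), 2.49-fold lower in DOPAC (2.07 to 3.02), where 17.6% of genes were called lower. NK cells had 32.9 CPM in DOPAC and 79.5 CPM in Control, a ratio of 0.414 (0.334 to 0.509). CD8 T cells had 40.2 CPM in DOPAC and 74.5 CPM in Control, a ratio of 0.540 (0.474 to 0.615). In classical monocytes the levels were 35.2 CPM in DOPAC and 89.8 CPM in Control (ratio 0.392, 0.327 to 0.467), with 14.6% of genes called lower. Regulatory T cells were the exception, with 68.0 CPM in DOPAC and 87.5 CPM in Control, a ratio of 0.778 (0.427 to 1.33).

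A difference so widespread was rare among all genes: of 4135 genes counted in all 16 separate classes, 10 (0.242%) were called lower in at least 15. It was seen outside the leukocyte classes too. Melanoma cells left in the sort had 31.7 CPM in DOPAC (5 UMIs in 16 cells) and 91.6 CPM in Control (165 UMIs in 47 cells), and ungated cells had 38.5 and 82.2 CPM. With 1 library per group, a property of the library and an effect of the treatment cannot be told apart.

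Fundc1, a hypoxia-responsive receptor, was called higher in 5 of the 16 classes with enough UMIs and lower in none. Of the 5 calls, 2 rest on the count added. Among classes that do not overlap it was called higher in 3 of 13. Over the 19 classes compared, 11.3% to 24.0% of all genes were called higher. In CD8 T cells Fundc1 was at 17.6 CPM in DOPAC (296 UMIs) and 10.3 CPM in Control (50 UMIs), 1.72-fold higher (1.27 to 2.36). Cxcl9-positive macrophages had 33.0 CPM in DOPAC and 20.6 CPM in Control, 1.604-fold higher (1.04 to 2.48), where 12.9% of genes were called higher. The highest level in DOPAC was in cDC1, at 46.7 CPM (31.5 to 66.7) against 30.3 CPM in Control (22.3 to 40.1). In NK cells it was at 16.02 CPM in DOPAC and 10.96 CPM in Control, 1.46-fold higher (1.00 to 2.12), with a log2 ratio of 1.25 after thinning (20 DOPAC and 7 Control UMIs). The CD8 T-cell log2 ratio of 0.75 was 0.34 after thinning (43 and 6 UMIs) and -0.035 when classes were gated on thinned cells (32 and 6 UMIs), under the 1.5-fold mark in both. The sign of the last value rests on the 1 count added to each sum.

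Pink1 was lower in DOPAC NK cells and in most T-cell classes. CD8 T cells had 5.47 CPM in DOPAC (4.41 to 6.71, 92 UMIs) and 20.9 CPM in Control (17.1 to 25.4, 102 UMIs), 3.83-fold lower in DOPAC. In checkpoint-positive CD8 T cells the levels were 6.42 CPM in DOPAC and 23.7 CPM in Control (ratio 0.270, 0.155 to 0.493), with 26.3% of genes called lower. T cells outside the gated subsets had 7.20 CPM in DOPAC and 24.1 CPM in Control, a ratio of 0.299 (0.195 to 0.448; 18.4% of genes). NK cells had 11.4 CPM in DOPAC and 26.7 CPM in Control, a ratio of 0.425 (0.292 to 0.606). Cycling CD8 T cells had 4.09 CPM in DOPAC and 10.6 CPM in Control, a ratio of 0.385 (0.182 to 0.912; 24.4% of genes).

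Macrophages had 4.63 CPM of Pink1 in DOPAC (14 UMIs) and 11.6 CPM in Control (247 UMIs), a ratio of 0.399 (0.215 to 0.682). Classical monocytes had 9.18 CPM in DOPAC and 9.31 CPM in Control, a ratio of 0.986 (0.667 to 1.42). Plasmacytoid dendritic cells, with the highest DOPAC level, had 21.0 CPM in DOPAC (6 UMIs) and 23.7 CPM in Control (102 UMIs), a ratio of 0.885 (0.317 to 1.99). Pink1 was called lower in 11 and higher in none of the 16 classes counted, some of which share cells. Among classes that do not overlap it was called lower in 8 of 13. Over the 19 classes compared, 14.0% to 26.3% of all genes were called lower.

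**Figure D3:**
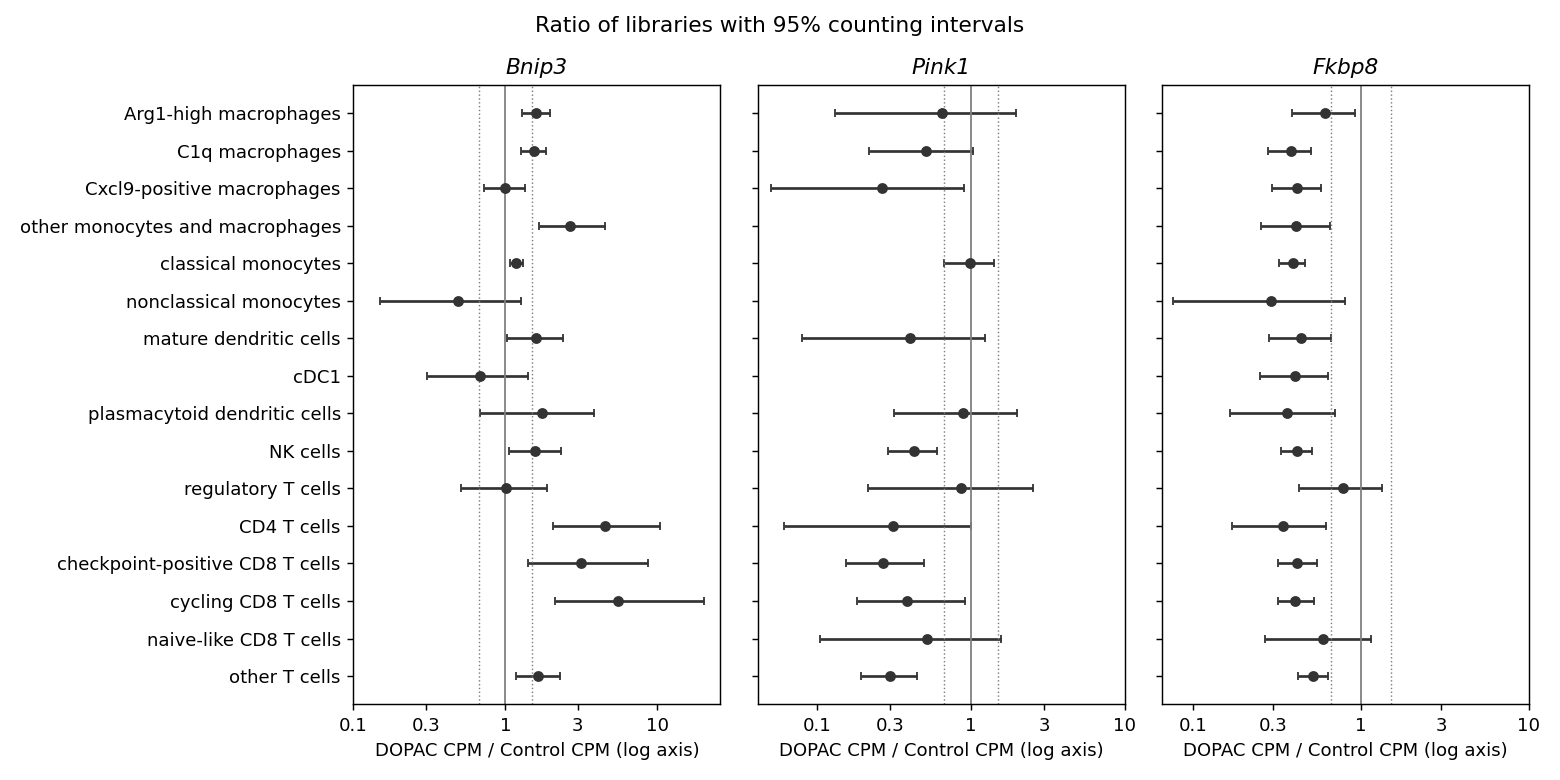
Plain CPM ratio of DOPAC over Control for Bnip3, Pink1 and Fkbp8 in those of the 16 separate classes (rows) with at least 20 UMIs in both sums together, on a log axis, with 95% counting intervals; the solid line marks 1 and the dotted lines 1.5-fold in either direction. Bnip3 reached 5.50 in cycling CD8 T cells, while every Pink1 and Fkbp8 ratio shown is below 1.

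Sqstm1 differed most in NK cells, which had 375 CPM in DOPAC (355 to 396, 1289 UMIs) and 660 CPM in Control (640 to 681, 3979 UMIs), a ratio of 0.568 (0.533 to 0.605). Among separate Control classes, NK cells came next to neutrophils in Sqstm1 level and above nonclassical monocytes by more than counting error, and the DOPAC NK level lay below that of DOPAC classical monocytes, at 456 CPM. Regulatory T cells had 187 CPM in DOPAC and 296 CPM in Control, a ratio of 0.632 (0.450 to 0.868), with 19.6% of genes called lower. The CD8 T-cell level was 142 CPM in DOPAC and 173 CPM in Control, a ratio of 0.820 (0.758 to 0.888). C1q macrophages had 526 CPM in DOPAC and 401 CPM in Control, 1.31-fold higher (1.21 to 1.42), and nonclassical monocytes 601 and 443 CPM, 1.36-fold higher (1.08 to 1.69). Sqstm1 was called lower in 3 classes, the NK class, its conventional subset and regulatory T cells, and higher in none of the 19.

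Optn was called higher in 4 of 17 classes and lower in none, and higher in 2 of the 14 that do not overlap. Over the 19 classes compared, 11.3% to 24.0% of all genes were called higher. Optn was higher in DOPAC macrophages, at 28.5 CPM (86 UMIs) against 18.3 CPM in Control (390 UMIs), 1.55-fold (1.21 to 1.97). It was the 1 of the 9 genes called higher there, where 16.1% of genes were. The largest ratio was in Arg1-high macrophages, with 39.4 CPM in DOPAC (15 UMIs) and 15.8 CPM in Control (87 UMIs), 2.49-fold higher (1.34 to 4.34). CD8 T cells had 10.2 CPM in DOPAC (172 UMIs) and 5.75 CPM in Control (28 UMIs), 1.78-fold higher (1.19 to 2.76). Without the naive-like cells, in which Optn had 0 UMIs in DOPAC (up to 12.1 CPM at 3 counts) and 12 in Control, the CD8 T-cell log2 ratio was 0.07, against 0.79 with them. Checkpoint-positive cells alone had 9.04 CPM in DOPAC and 11.9 CPM in Control. Neutrophils held the highest Optn level of any Control class, at 332 CPM (277 to 394).

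Map1lc3b was called lower in 1 class and higher in none of the 19. Nonclassical monocytes had 120 CPM in DOPAC (23 UMIs) and 191 CPM in Control (114 UMIs), a ratio of 0.631 (0.385 to 0.994). NK cells fell just short of the 1.5-fold mark, with 172 CPM in DOPAC (592 UMIs) and 258 CPM in Control (1552 UMIs), a ratio of 0.669 (0.608 to 0.736). In CD8 T cells it was at 204 CPM in DOPAC and 238 CPM in Control, a ratio of 0.853 (0.798 to 0.913). Macrophages had 178 CPM in DOPAC and 186 CPM in Control, a ratio of 0.958 (0.874 to 1.05). The overlapping gene Zcchc14 was at 13.2 CPM in DOPAC CD8 T cells and 2.46 CPM in Control CD8 T cells, and the share of it that may stand in the Map1lc3b count was not tested.

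Ulk1 was lower in DOPAC CD8 T cells, while its ratio was above 1 in macrophages. CD8 T cells had 12.5 CPM in DOPAC (210 UMIs) and 26.3 CPM in Control (128 UMIs), a ratio of 0.475 (0.380 to 0.597). Naive-like cells, the CD8 T subset with the highest Control level, had 8.10 CPM in DOPAC (2 UMIs) and 30.6 CPM in Control (97 UMIs), a ratio of 0.264 (0.0316 to 0.981; 17.1% of genes called lower). Without naive-like cells the CD8 T-cell log2 ratio was -0.57, against -1.08 with them. NK cells had 29.7 CPM in DOPAC and 39.0 CPM in Control, a ratio of 0.761 (0.598 to 0.965). Arg1-high macrophages had 18.4 CPM in DOPAC (7 UMIs) and 9.26 CPM in Control (51 UMIs), a ratio of 1.98 whose interval of 0.759 to 4.39 includes 1. All macrophages together had 17.5 CPM in DOPAC and 12.97 CPM in Control, a ratio of 1.35 (0.988 to 1.82). Whether the T-cell and macrophage ratios differ was not tested, since each rests on 1 library per group.

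Over the 16 separate classes there were 133 pairs of a gene and a class with enough UMIs, and 49 were called, 18 higher and 31 lower in DOPAC. CD4 T cells had 1 of 7 counted genes higher (Bnip3) and 3 lower (Pink1, Fkbp8 and Ulk1), with 20.1% and 18.2% of all genes. Regulatory T cells had Optn higher and Sqstm1 lower, with 19.7% and 19.6% of all genes. Naive-like CD8 T cells had Fundc1 higher and Fkbp8 and Ulk1 lower, with 22.2% and 17.1% of all genes. That Fundc1 call rests on the added count, since the plain ratio was 1.33 (0.259 to 4.28) from 3 DOPAC and 29 Control UMIs. Cycling and checkpoint-positive CD8 T cells each had Bnip3 higher and 3 genes lower (Pink1, Fkbp8 and Ulk1), one of them, checkpoint-positive Ulk1, only after 1 count was added (plain ratio 0.702). In cycling cells 13.9% of all genes were higher and 24.4% lower, and in checkpoint-positive cells 12.9% higher and 26.3% lower, so the lower share of the 9 genes was near that of all genes. NK cells had Bnip3 higher and Pink1, Fkbp8 and Sqstm1 lower, with 11.3% and 18.7%. T cells outside the gated subsets had Bnip3 higher and Pink1 and Fkbp8 lower, with 13.1% and 18.4%. The conventional subset of NK cells, which is not one of the 16, also had Fundc1 higher, at a plain ratio of 1.38 (0.598 to 2.84), with 16.3% of all genes higher and 17.6% lower. Plasmacytoid dendritic cells had Bnip3 and Ulk1 higher and Fkbp8 lower, with 24.0% and 16.6%. cDC1 had Fundc1 higher and Fkbp8 lower, with 16.2% and 14.0%. Mature dendritic cells had Bnip3 higher and Pink1 and Fkbp8 lower, with 17.2% and 16.1%. Classical monocytes had Fkbp8 lower alone, where 15.8% of all genes were higher and 14.6% lower. Nonclassical monocytes had Bnip3, Fkbp8 and Map1lc3b lower and none higher, where 19.8% of all genes were higher and 19.0% lower. Arg1-high macrophages had Bnip3, Optn and Ulk1 higher and Fkbp8 lower, with 21.6% and 20.1%. Cxcl9-positive macrophages had Fundc1 higher and Pink1 and Fkbp8 lower, with 12.9% and 14.0%. C1q macrophages had Bnip3 higher and Pink1 and Fkbp8 lower, with 18.1% and 20.3%. Monocytes and macrophages outside the gated subsets had Bnip3 and Ulk1 higher and Fkbp8 lower, with 14.7% and 17.6%. With 6 to 9 genes counted per class, these counts describe the genes named and not the pathway as a whole. The median log2 ratio of all genes was -0.17 in checkpoint-positive CD8 T cells, -0.12 in cycling CD8 T cells and 0.10 in plasmacytoid dendritic cells, and within 0.10 of 0 in the other classes.

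The rest of the pathway was read from gene lists. Of 18 further genes of the PINK1 pathway, 1 was called higher and 2 lower in CD8 T cells, where 17.8% of all genes were higher and 22.0% lower. Their median log2 ratio was 0.02, against -0.05 over all genes. Tomm7, the import-complex subunit that stabilizes PINK1 on mitochondria, had 360 CPM in DOPAC CD8 T cells and 159 CPM in Control CD8 T cells, 2.27-fold higher (2.11 to 2.45). It was also higher in NK cells, at 214 CPM in DOPAC and 142 CPM in Control, and in macrophages, at 246 CPM in DOPAC and 155 CPM in Control. Mul1, a mitochondrial ubiquitin ligase, was lower in all 3 of these classes, at 8.27 CPM in DOPAC and 15.2 CPM in Control CD8 T cells. In NK cells and in macrophages, 4 of the 18 were called lower in each, a share near the 18.7% and 17.6% of all genes. Macrophage Phb2, an inner-membrane mitophagy receptor, had 58.2 CPM in DOPAC and 123 CPM in Control. Of 3 further receptor genes, Phb2 among them, 1 was called higher and none lower in CD8 T cells. Their median log2 ratio was -0.40 there, -0.44 in NK cells and -0.20 in macrophages, and below 0 in all 19 classes. Of 4 further adaptor genes, none was called higher and 1 lower in CD8 T cells. Their medians were -0.18, -0.05 and 0.37 in these 3 classes, against -0.05, -0.10 and -0.03 over all genes.

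Among 11 further genes of ATG8 proteins and their conjugation, none was called higher and 3 were called lower in CD8 T cells (Map1lc3a, Atg7 and Atg10), near the 22.0% of all genes called lower, with a median log2 ratio of -0.08. Map1lc3a, another LC3 gene, was lower in all 3 classes, at 17.1 CPM in DOPAC and 28.7 CPM in Control CD8 T cells. NK cells had 2 of the 11 lower, near the 18.7% of all genes, including Gabarapl2 at 68.7 CPM in DOPAC and 136 CPM in Control. Of 11 further initiation and nucleation genes, 1 was called lower in CD8 T cells (Atg9a) and 1 in NK cells (Atg101). Pik3c3 was the 1 called higher in macrophages. Among all genes, 22.0% were lower in CD8 T cells, 18.7% lower in NK cells and 16.1% higher in macrophages. Each count of 1 in 11 was below that share. Of 10 lysosome genes, 4 were lower in NK cells, where 18.7% of all genes were. Among them was Tfeb, the master regulator of lysosome genes, at 18.6 CPM in DOPAC and 35.7 CPM in Control. Macrophages had 1 of the 10 lysosome genes lower, where 17.6% of all genes were. It was the protease gene Ctsd, at 525 CPM in DOPAC and 1377 CPM in Control. Dnm1l, the fission GTPase, was the 1 of 7 mitochondrial dynamics genes called in CD8 T cells, where 17.8% of all genes were higher. Its level was 106 CPM in DOPAC and 68.6 CPM in Control. None of the 7 was called within cycling or checkpoint-positive CD8 T cells. In naive-like cells 3 were called higher and 1 lower, beside 22.2% and 17.1% of all genes.

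Hypoxia-response genes and NRF2 targets were read beside the mitophagy genes. Of 17 hypoxia-response genes counted in CD8 T cells, 6 were called higher (Mxi1, Ero1l, Vegfa, Ddit4, Ndrg1 and Ldha) and 3 lower (Pdk1, P4ha1 and Kdm3a), where 17.8% of all genes were higher and 22.0% lower. Their median log2 ratio was 0.35, against -0.05 over all genes. In checkpoint-positive CD8 T cells, where Bnip3 was 3.14-fold higher, 2 of 17 were called higher and 4 lower, near the 12.9% and 26.3% of all genes. Their median log2 ratio was -0.21, against -0.17 over all genes. Hif1a had 315 CPM in DOPAC CD8 T cells and 202 CPM in Control CD8 T cells. Of 13 NRF2 targets counted in CD8 T cells, 5 were called higher and 1 lower, beside the same 17.8% and 22.0% of all genes. Osgin1 led these, at 17.2 CPM in DOPAC and 3.08 CPM in Control (5.58-fold, 3.33 to 10.1), whereas Sqstm1 was at a ratio of 0.820. Within checkpoint-positive CD8 T cells 2 of 13 NRF2 targets were called higher and 1 lower, beside 12.9% and 26.3% of all genes. Their median log2 ratio was 0.12 there, against 0.34 in all CD8 T cells. Within cycling CD8 T cells 3 of 13 were called higher and none lower, beside 13.9% and 24.4% of all genes. Nfe2l2 had 39.6 CPM in DOPAC CD8 T cells and 88.9 CPM in Control CD8 T cells, and Keap1, which marks NRF2 for degradation, had 33.0 CPM in DOPAC and 20.7 CPM in Control.

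Across the 36 profiles of separate classes and libraries, the level of Bnip3 ran with that of hypoxia genes. The 5 genes most like it among 9397 were Ero1l, an endoplasmic reticulum oxidase (Pearson r = 0.907 of log2(CPM + 10)), Slc16a3, a lactate exporter (0.880), Cstb (0.877), Slfn4 (0.859) and the chemokine receptor Ccr1 (0.853). With the mean of 19 hypoxia-response genes, r was 0.858 and Spearman's rho 0.819, and r was 0.796 without both Arg1-high macrophage profiles, the points farthest out. Within the 16 DOPAC profiles r was 0.926, and within the 20 Control profiles 0.836. Leaving out monocytes, macrophages and neutrophils, r was 0.538 and Spearman's rho 0.471 over 23 profiles. There r was 0.444 without Control plasmacytoid dendritic cells and Control regulatory T cells, the points farthest out. Single hypoxia-response genes differed in their r with Bnip3 over the 36 profiles, with Ldha at 0.561, Vegfa at 0.640 and Ankrd37 at 0.821. These profiles share libraries, depth and, through free RNA, transcripts of other classes, so the values are descriptions.

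**Figure D4:**
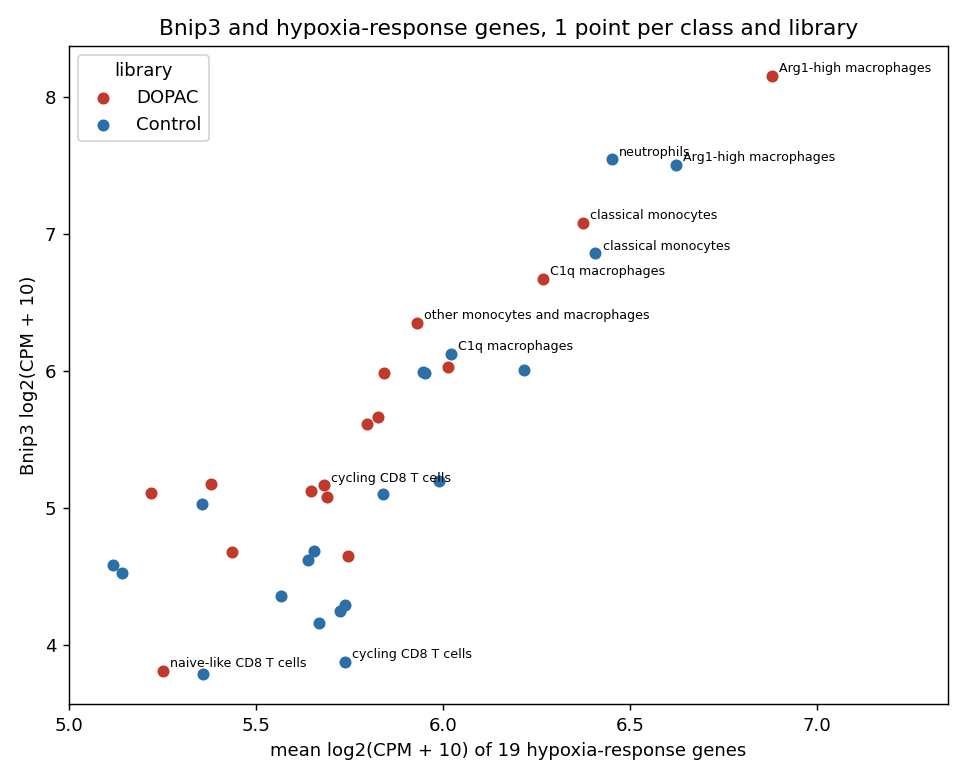
Bnip3 level against the mean level of 19 hypoxia-response genes, both as log2(CPM + 10), with 1 point per class and library for the 36 profiles. Arg1-high macrophages stand at the upper right in both libraries, and Control cycling CD8 T cells lie below the DOPAC ones at a like hypoxia mean.

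The other mitophagy genes followed different patterns. Bnip3 and Bnip3l had r = 0.056, while Bnip3l went with Map1lc3b (r = 0.707) and against Fundc1 (r = -0.722). Bnip3 had r = 0.667 with Optn and 0.549 with Sqstm1. The gene most like Pink1 was Bicra (r = 0.828), and the gene most like Fkbp8 was Map2k2 (r = 0.846). For Sqstm1 it was Ifrd1 (r = 0.879), for Optn N4bp1 (r = 0.857) and for Ulk1 Kdm5b (r = 0.829). Bnip3l, Fundc1 and Map1lc3b had no gene above 0.8.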

How the data were processed

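The authors deposited unnormalized UMI counts, per the file headers the output of Cell Ranger 7.0.1, on GRCm38 per the submitters' processing notes. The DOPAC library held 10777 barcodes and 47769958 UMIs, the Control library 9629 barcodes and 100938364 UMIs.

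Kept cells had a minimum of 500 UMIs and of 200 genes, and mitochondrial UMIs of up to 10%. Doublets were scored with Scrublet (scanpy 1.11.5). Its automatic threshold marked 0 of 10095 DOPAC cells, so the 815 highest scores (8.07%) were removed there, and it removed 339 of 8444 Control cells (4.01%). A cell joined a lineage with at least 2 marker UMIs and at least 2 times those of any other lineage, and subsets by further markers. Counts were summed per class. Levels have exact Poisson intervals and ratios exact binomial ones, as computed here (scipy 1.17.1), and the ratio step was checked on simulated data. Members and lists were chosen with earlier results of these data known. Named were the 9 genes, their most similar genes, and list genes past 1.5-fold in CD8 T cells, NK cells or macrophages. The listed marker Trgc1 and the gene Aldoa were not used. The closing section gives the effect of other totals, weights, filters, gates and depths.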

Additional observations from a re-analysis of the deposited data

How the results depend on the processing

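The Bnip3 log2 ratio in CD8 T cells, NK cells and macrophages kept its direction in all 32 alternative values. Of these, 28 stayed within the counting interval. After thinning every cell to 1000 UMIs the ratio was 1.23 in CD8 T cells (57 DOPAC and 4 Control UMIs), against 2.40. In NK cells it was 1.24 (12 and 4 UMIs), against 0.66, and in macrophages 0.80 (64 and 85 UMIs), against 0.16. In CD8 T cells with no UMI of another lineage's markers, an alternative chosen after seeing the data, it was 1.64 (114 and 1 UMIs, in 1010 and 44 cells). With 1 Control UMI, the added count by itself lowers this last value, so it does not show a smaller difference. All these values rest on few UMIs, and the cause of the shifts after thinning was not tested. For the other 8 genes, 226 of 256 alternative values were within the counting interval, 28 moved and 2 reversed. Reversed was Fundc1 in CD8 T cells gated on thinned cells (-0.035, against 0.75, from 32 DOPAC and 6 Control UMIs). Optn reversed in CD8 T cells without other lineages' markers (-0.34, against 0.79, from 57 and 3 UMIs). Both signs rest on the 1 count added to each sum, since the plain ratios stay above 1. Called pairs of a gene and a class numbered 49, against 55 with no minimum of UMIs and 53 after centring on the median of all genes. No paired analysis was possible because each group has 1 library.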

Other observations

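Some cells belonged to no comparison because too few were gated in 1 library. Bnip3 was at 286 CPM in 35 DOPAC neutrophils (163 to 464, 16 UMIs) and 177 CPM in 112 Control neutrophils (138 to 224, 70 UMIs). Melanoma cells that had passed the CD45 sort had 247 CPM of Bnip3 in 16 DOPAC cells (176 to 338) and 206 CPM in 47 Control cells (186 to 228). Neutrophil Optn was at 178 CPM in DOPAC (85.6 to 328) and 332 CPM in Control (277 to 394). No Bnip3 UMI was found in 27 DOPAC B cells, against 35 UMIs in 595 Control B cells, at a median of 1599 UMIs per DOPAC cell, too few to say whether these cells express it. The ungated cells, 1827 in DOPAC and 1117 in Control, had 35.0 CPM of Bnip3 in DOPAC (30.3 to 40.1) and 19.4 CPM in Control (17.2 to 21.8).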
